A study of Mus musculus with 9 samples.

Results

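The 3 control libraries of the series, out of 9 libraries in all, were taken by their titles (GFP n1, n2 and n3) and are described here at baseline, with no contrast against the other groups. They come from forebrains of C57Bl6DBa2 mouse embryos that received an H2B-GFP plasmid, a histone-tagged fluorescent reporter that marks nuclei, by electroporation in utero at E14.5 (embryonic day). Fluorescent cells were sorted at E16.5, 2 days later, and the labels call them neural progenitor cells. Other samples of the series received a GemC1 or Mcidas plasmid and are not analysed here. The controls carry the reporter alone, and the labels do not say whether the reporter was driven by the same promoter as the factors, how many embryos were pooled, or whether the 3 replicates came from separate litters. The SD over 3 libraries (n = 3 throughout) therefore measures only the spread between these samples.

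Electroporation into the lateral ventricle reaches the cells that line it, which are mainly radial glia, the neural stem cells of the fetal forebrain. Radial glia divide to renew themselves and to make intermediate progenitors and neurons, and neurons born at this age move outward to the upper layers of the cortex. Multiciliated ependymal cells arise from a subset of radial glia. They pass through a programme in which GemC1 (gene Gmnc) and Mcidas, relatives of the replication inhibitor geminin, act with E2F4 or E2F5 on genes for centriole amplification and motile cilia. The p53 protein, its inhibitor MDM2 and its target p21 (gene Cdkn1a) are parts of the DNA damage response named in the title of the series.

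Levels were read within a gene as CPM (the gene's count over the library's total, times 1000000) and between genes as TPM (counts per kilobase of exon, scaled to the same sum in each library). A gene was called expressed at 1 CPM or more in each of the 3 libraries, not counted at 0 in all 3, and low otherwise. Total counts were 34417359, 41163917 and 34756650 in GFP replicates 1, 2 and 3. Of 53379 genes, 14583 (27.3%) were expressed and 23924 (44.8%) were not counted. Of 21865 protein-coding genes, 12017 (55.0%) were expressed and 5432 (24.8%) were not counted, and the median level was 3.79 TPM over all coding genes and 30.4 TPM over the expressed ones. The counts of list members given below stand beside that 55.0%, and a list's median is over all its matched members. The libraries correlated at 0.988 to 0.992 (Pearson's r of log2 CPM across 14583 expressed genes, which are not independent replicates). Replicate 3 stood somewhat apart: it was the lowest of the 3 libraries for 40.4% of expressed genes and the highest for 29.4%, and the genes that set it apart are given in a section of their own.

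The 5 marker genes given for these cells were all expressed, and the neuronal pair stood far above the progenitor pair per length. Sox2, a transcription factor of neural stem cells (chr3:34650405-34652461, GRCm38), was at 50.5, 48.5 and 38.8 CPM in replicates 1, 2 and 3. Pax6, which specifies dorsal radial glia (chr2:105668900-105697364), was at 70.8, 75.1 and 59.6 CPM. Both were lowest in replicate 3. Eomes, the defining factor of intermediate progenitors (chr9:118478212-118486132), was at 263, 246 and 194 CPM, again lowest in replicate 3. Tubb3, the beta-tubulin of young neurons (chr8:123411424-123422015), was at 1088, 925 and 1042 CPM. Dcx, a microtubule protein of migrating neurons (chrX:143855842-143933311), was at 1040.4, 1106 and 1122 CPM. These last 2 genes did not share the order of the progenitor genes: Tubb3 was lowest in replicate 2 and Dcx in replicate 1.

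Per length, the order of the 5 levels was Tubb3 at 1929 ± 130 TPM (SD, n = 3), Dcx at 305 ± 15.1, Eomes at 199.8 ± 30.7, Sox2 at 79.1 ± 10.98 and Pax6 at 20.8 ± 2.63. The values of neighbours in this order did not overlap in the 3 libraries. The order rests on merged exon lengths, which are 11694 bases for Pax6 and 12647 for Dcx, against 2057 for Sox2 and 1868 for Tubb3. In mean CPM, Pax6 (68.5) was above Sox2 (45.9) and Dcx (1090) above Tubb3 (1018), although Dcx was below Tubb3 in replicate 1. The ratio of Tubb3 to Sox2 in TPM was 23.7, 21.0 and 29.6 in the 3 libraries, highest in replicate 3. The ratio of Eomes to Sox2 was steadier, at 2.52 ± 0.05. The sorted population labelled as neural progenitor cells thus held transcripts typical of progenitors and of postmitotic neurons together. In a bulk sample, fewer cells of a type and less RNA per cell cannot be told apart, so none of these ratios is a ratio of cell numbers.

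All 22 radial glia markers were expressed, with a median of 78.3 TPM. The highest was Fabp7, a fatty acid-binding protein of radial glia, at 445, 424 and 316 CPM (1119 ± 199 TPM). Dbi, which binds acyl-CoA, followed at 458 TPM, and the Notch target Hes5 at 137 TPM. About 31.8% of the Hes5 exons overlap another annotated gene. The lowest were Lrig1 at 8.36 TPM and Hopx, a marker of outer and later radial glia, at 7.81 TPM. The intermediate filament genes Vim and Nes were at 110 ± 14.9 and 43.6 ± 9.99 TPM. Nes was at 81.0, 94.8 and 60.7 CPM, and Vim at 160, 157 and 125 CPM, both lowest in replicate 3.

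Markers of intermediate progenitors were at higher levels: all 16 were expressed, with a median of 197 TPM. Sstr2, a somatostatin receptor, was at 676, 698 and 705 CPM (1145 ± 36.6 TPM), almost level across libraries. Hes6 and Insm1, factors of cells leaving the stem cell state, were at 619 and 425 TPM. Neurog2, the proneural factor of the dorsal forebrain, was at 271, 274 and 247 CPM (419 ± 26.9 TPM). Its relative Neurog1 was the lowest of the list at 4.74 TPM, with Nhlh1 at 10.3 TPM. Btg2, an antiproliferative gene of neuron-producing progenitors and a p53 target, was at 148, 153 and 90.8 CPM, with replicate 3 well under the others.

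Of 22 pan-neuronal markers, 21 were expressed, with a median of 78.1 TPM. After Tubb3 came Stmn3 at 639 TPM and Crmp1, a growth cone protein, at 539 TPM. The low end held genes of mature axons: Nefm at 3.02 TPM and Nefl, the single low member, at 0.261, 0.826 and 0.518 CPM. About 32.8% of the Nefl exons in the annotation overlap exons of Nefm, so its few reads cannot be assigned with certainty. All 20 markers of cortical excitatory neurons were expressed, with a median of 169 TPM. Neurod6 reached 804, 740 and 948 CPM (1367 ± 164 TPM) and Zbtb18, a repressor needed for neuronal migration, reached 1252 ± 62.0 TPM. The synaptic and late genes Camk2b (2.39 TPM) and Cdh13 (2.33 TPM) were the lowest members.

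Upper-layer genes stood above deep-layer genes. All 14 upper-layer markers were expressed with a median of 130 TPM, led by Pou3f3 (286 TPM), Lhx2 (283 TPM) and Pou3f1 (230.3 TPM). Of 14 deep-layer and subplate markers 12 were expressed, with a median of 7.45 TPM. The ratio of the 2 medians was 16.2, 16.01 and 20.4 in replicates 1, 2 and 3. Bcl11b (Ctip2), the factor of subcerebral deep-layer neurons, was at 228, 251 and 251 CPM (106 ± 6.96 TPM), with little spread between the libraries. Tbr1, which new neurons also express before they settle, was the highest of the deep-layer list at 278 ± 25.4 TPM. Tbr1 and Bcl11b both stood far above the median of their list. Crym and Cplx3, genes of settled deep-layer and subplate neurons, had at most 2 counts in any library.

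**Figure D1:**
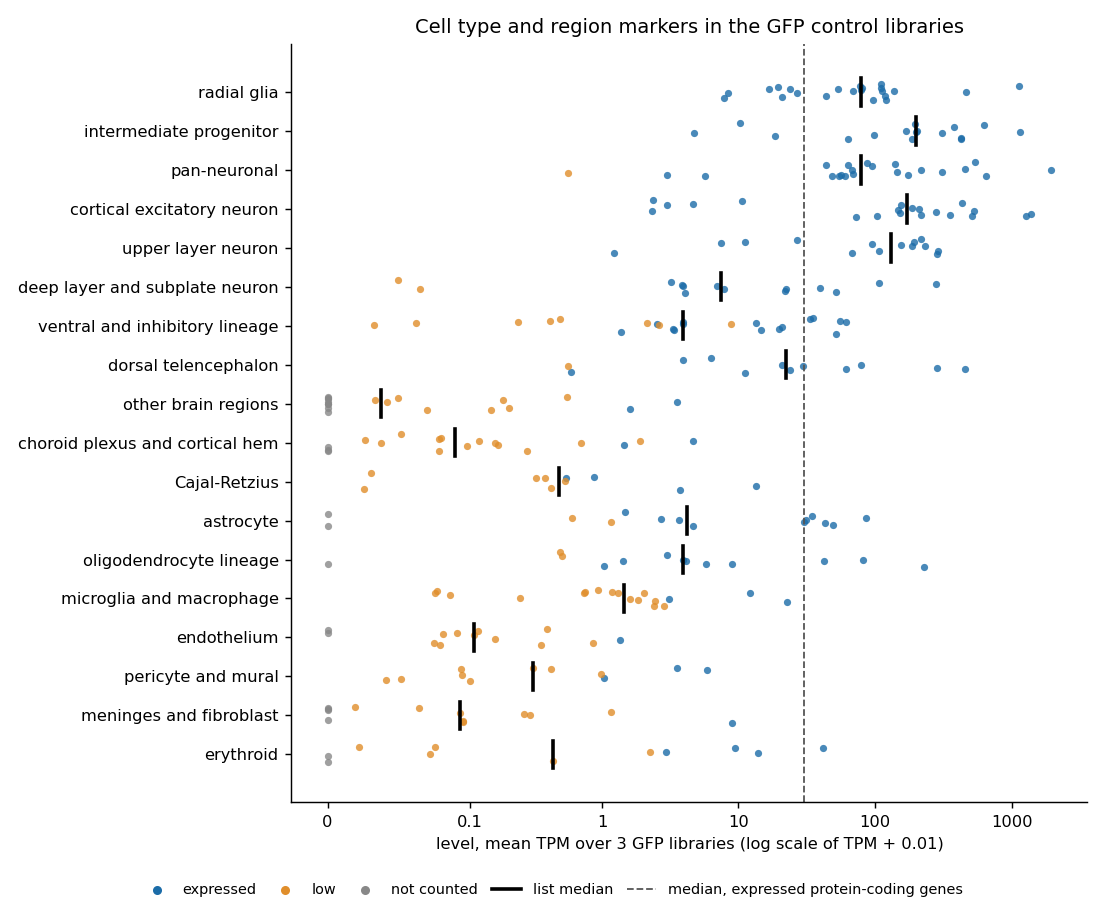
Mean level of each marker gene over the 3 GFP libraries (x axis, TPM, on a log scale of TPM + 0.01) for 18 cell type and region lists (y axis). Points are genes coloured by class, black bars are list medians, and the dashed line is the median of expressed protein-coding genes at 30.4 TPM. Medians of radial glia (78.3 TPM), intermediate progenitor (197 TPM) and excitatory neuron genes (169 TPM) lie to the right of the line, and those of vessel, meningeal and other brain region genes lie far to its left.

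Most dorsal telencephalic genes were expressed, 11 of 12, and most genes of other brain regions were not. Among genes of other brain regions only 2 of 18 were expressed, Tcf7l2 at 3.54 TPM and En2 at 1.62 TPM. A further 8 of the 18 were not counted in any library, among them En1, Pax7 and all 5 Hox genes of the list. Along the dorsoventral axis genes of both sides were expressed, at unlike list levels. The median was 22.4 TPM over the 12 dorsal genes and 3.91 TPM over 23 genes of the ventral and inhibitory lineage. A single pair of factors was closer. Emx1, a dorsal factor, was at 39.9, 36.6 and 36.3 CPM, and Dlx2, a factor of the ventral forebrain and of inhibitory neurons, at 52.1, 55.5 and 40.05 CPM. Per length their ratio was 1.02 ± 0.16, so neither stood above the other beyond the spread.

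Of the 23 genes of the ventral and inhibitory lineage 15 were expressed, with a median of 3.91 TPM. Dlx2 led at 61.1 TPM, and the 4 Dlx genes kept the order Dlx2, Dlx1, Dlx5 and Dlx6 without overlap between neighbours. Gad1, which makes the transmitter GABA, was at 7.84, 10.1 and 7.54 CPM. Nkx2-1, the factor of the medial ganglionic eminence, had 0, 0 and 1 count, and Lhx8 of the same territory had 0, 3 and 0 counts. Lhx6, carried by interneurons that have left the medial eminence, was expressed at 3.41 TPM, and Gsx2, the factor of the lateral eminence, was at 10.8, 9.33 and 9.32 CPM. The number of labelled ventral cells cannot be read from these levels.

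Genes of the glial lineages were uneven. Of 13 genes of the oligodendrocyte lineage 10 were expressed, led by the early factors Olig1 at 156, 159.8 and 98.97 CPM (227 TPM) and Olig2 at 60.0, 68.1 and 46.1 CPM (81.4 TPM). Radial glia of the ventral forebrain also carry these genes. The myelin genes Mbp (5.78 TPM) and Mog (3.02 TPM) were above the line at low levels, Nkx2-2 was at 0.487 TPM, and Enpp6, a gene of newly formed oligodendrocytes, was not counted. Of 14 astrocyte genes 10 were expressed, with Aldoc at 84.9 TPM and Apoe at 48.8 TPM, both of which radial glia also express. Gfap, the classical astrocyte filament, was at 0.959, 1.12 and 0.0575 CPM, and the mature genes Agt and Gjb6 were not counted.

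Genes of cells from outside the neural lineage had few reads. Over the 5 lists for microglia, endothelium, pericytes, meninges and red blood cells, 12 of 66 genes (18.2%) were expressed and the median was 0.276 TPM. Microglia list sums were 62.4, 68.3 and 39.0 TPM, lowest in replicate 3, and the defining genes C1qb and P2ry12 were at 0.988, 0.632 and 0.633 CPM and at 0.320, 0.972 and 0.288 CPM. Of the 3 expressed members (5 without replicate 3), Csf1r was at 12.2 TPM and Tmem119 at 3.09 TPM, and 15.1% of the exons of Csf1r overlap other genes. Endothelial sums were 3.02, 3.64 and 4.08 TPM, with Cldn5, a tight junction protein of brain vessels, at 0, 0.534 and 0.489 CPM. The erythroid sums were 54.03, 76.5 and 80.6 TPM, with Hbb-bt at 1.54, 1.87 and 2.22 CPM. Hba-a1 and Hba-a2 are near-identical copies, so their separate counts are uncertain. Choroid plexus and cortical hem genes were mostly below the line: 2 of 18 were expressed (Rspo3 at 4.63 TPM and Bmp6 at 1.46 TPM), Otx2 was not counted, and Ttr, the leading transcript of the choroid plexus, had a single count in replicate 2. Reln, the signal of Cajal-Retzius cells, was at 4.997, 1.992 and 3.999 CPM, which was 0.544 TPM.

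The transcription factors that open the multiciliated programme were at or near 0. Gmnc, the gene of GemC1 (chr16:26913553-26991652), had no count in any of the 3 libraries, which allows levels of up to 0.0872, 0.0729 and 0.0863 CPM (3 counts, counting error only). Mcidas (chr13:112993845-113000394) was at 0.639, 0.656 and 0.662 CPM, close to equal in the 3 libraries and under the 1 CPM line in all. Foxj1, the activator of motile cilium genes (chr11:116330704-116335399), was at 1.05, 1.51 and 0.489 CPM and crossed that line in replicates 1 and 2 only. The Trp73 gene, which codes for a p53 relative needed for multiciliated cells, was at 0.232, 1.31 and 0.403 CPM. Their relative geminin (Gmnn), made in cycling cells, was at 19.8, 14.8 and 13.1 CPM (38.5 ± 8.05 TPM).

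In contrast to these switches, the partner factors were present. E2f4 and E2f5, the DNA-binding partners of GemC1 and Mcidas, were at 58.9 and 61.0 TPM and their dimer partner Tfdp1 at 98.1 TPM. Myb, which acts early in multiciliated differentiation and in cycling cells, was at 6.86, 8.21 and 7.62 CPM. Ccno, a cyclin-like gene of centriole amplification that neighbours Mcidas on chromosome 13, was at 2.85, 1.798 and 3.31 CPM. Of the whole list 15 of 20 genes were expressed (median 11.4 TPM), led by Mycl at 340 TPM and Ulk4 at 157 TPM. Ulk4 is a kinase-like gene linked to ependymal cilia and Mycl a MYC relative expressed in many tissues.

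RFX factors bind promoters of cilium genes, and 6 of them could be ordered. Rfx3, which ciliated cells of many kinds use, was the highest at 62.7, 67.9 and 74.2 CPM (21.9 ± 1.91 TPM). It was followed by Rfx7 at 17.8 ± 0.89 TPM. Rfx5 (11.7 TPM), Rfx1 (11.1 TPM) and Rfx4 (9.98 ± 3.86 TPM) overlapped each other, and Rfx4 varied widely between libraries, at 13.4, 18.2 and 8.26 CPM. Rfx2, the member most tied to motile cilia, was the lowest at 4.24, 7.17 and 4.03 CPM (2.501 ± 0.89 TPM). It also varied widely and did not overlap the others.

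**Figure D2:**
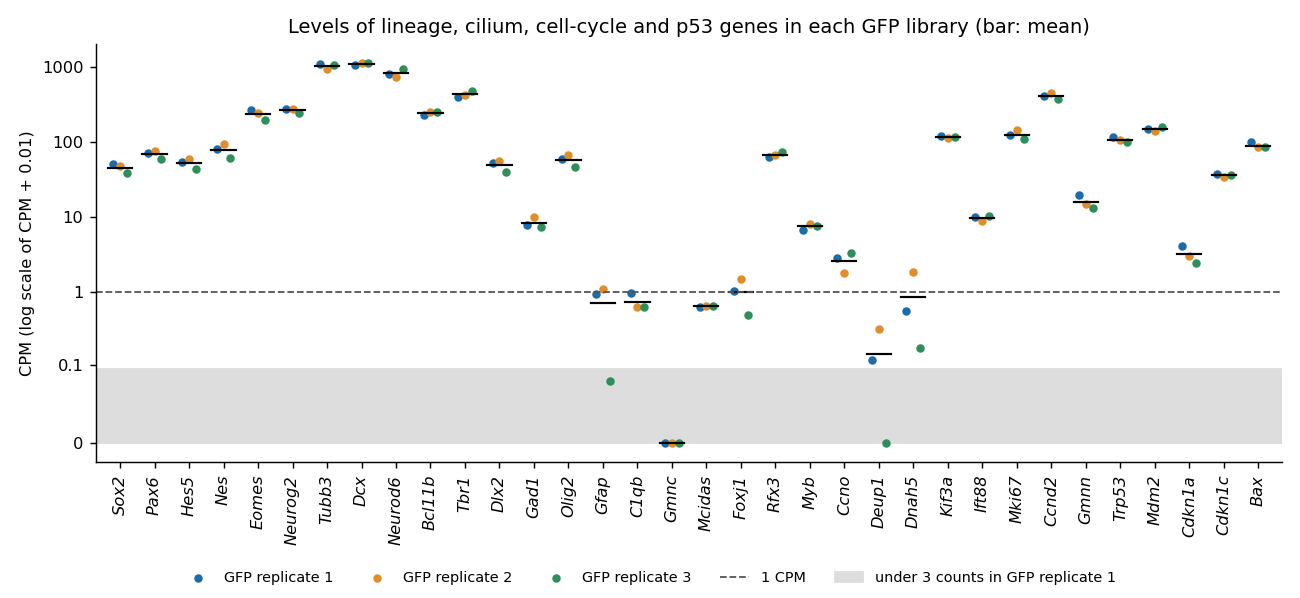
Level of 34 named genes (x axis) in each of the 3 GFP libraries (y axis, CPM on a log scale of CPM + 0.01). Points are libraries, bars are means, the dashed line is 1 CPM and the grey band lies under 3 counts in GFP replicate 1. Gmnc sits at 0 in all 3 libraries and Mcidas just under the line, while Kif3a, Trp53 and Mdm2 sit near or above 100 CPM with little spread.

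The centriole genes separated into a shared set and a deuterosome set. Of 34 genes for procentriole and deuterosome assembly 30 were expressed with a median of 20.4 TPM. The genes every cycling cell uses to duplicate its centrioles were among them: Plk4, the kinase that starts duplication, was at 36.6, 43.5 and 34.8 CPM, and Cep152, its scaffold, at 29.4, 33.5 and 24.2 CPM. Cetn3 (133 TPM), Cep131 (103 TPM) and Cetn2 (79.1 TPM) were the highest. The 4 members that missed the line were Deup1, Cdc20b, Ccdc78 and Cetn4. Deup1, which builds the deuterosome of multiciliated cells, was at 0.116, 0.316 and 0 CPM (4, 13 and 0 counts). Cdc20b, another deuterosome component, was at 0.291, 0.219 and 0.201 CPM.

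Genes of the motile axoneme were mostly low. Over 4 lists (outer dynein arms, inner dynein arms, radial spokes with the central pair, and the nexin-dynein regulatory complex with microtubule inner proteins) 29 of 87 genes (33.3%) were expressed, 53 were low and 5 were not counted. Their median was 0.533 TPM, 53 of the 87 were under 1 TPM, and 9 reached 10 TPM. The 5 genes with no count in any library were Armc4, Wdr63, Rsph6a, Tekt3 and Cfap52, which code for a docking factor, an inner dynein arm chain, a spoke head protein and 2 inner microtubule proteins. Outer arm heavy chains were low, Dnah5 at 0.552, 1.89 and 0.173 CPM and Dnah9 at 1.10, 0.947 and 0.432 CPM. Rsph1 was at 0.959, 0.753 and 0.345 CPM. These 3 genes were lowest in replicate 3, at 6, 15 and 12 counts, where a few reads move the value. Their coefficients of variation over the 3 libraries were 104%, 42.5% and 45.5%. Counting alone gives 17.1%, 18.1% and 19.9%, and the source of the wider spread was not tested.

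The 9 members that reached 10 TPM were Tekt2, Dnal4, Cfap20, Tcte1, Stk36, Gas8, Rsph9, Ccdc40 and Mns1. Stk36, a kinase first described in Hedgehog signalling, was at 59.9, 59.8 and 57.8 CPM (32.6 ± 0.91 TPM). Cfap20, which primary cilia also carry, was at 59.2 TPM, and Dnal4, a light chain, at 72.0 TPM. Tekt2 stood at 82.1 TPM, but 20.8% of its exons overlap another annotated gene and the library kit does not mark strand, so its reads cannot be assigned with certainty. The same limit holds for Tcte1 (32.8 TPM, 23.7% overlap with Tmem151b). Of 17 dynein arm assembly factors 13 were expressed (median 7.02 TPM). The top 3, Ruvbl2 (114 TPM), Ruvbl1 (90.1 TPM) and Pih1d1 (69.3 TPM), are general chaperone components, while the dedicated factors Zmynd10 (0.461 TPM) and Pih1d3 (not counted) were at the bottom.

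Genes of the primary cilium, the single sensory cilium of neural progenitors, were at the other end. Over intraflagellar transport, the BBSome and the transition zone, 67 of 69 genes (97.1%) were expressed, with a median of 22.5 TPM. Kifap3 and Kif3a, subunits of the kinesin that carries cargo up the cilium, led at 120 and 116 TPM. Kif3a was at 122, 114 and 117 CPM (117 ± 4.30). Ift88, a core transport subunit, was at 9.97, 8.84 and 10.5 CPM. The 2 members that were not expressed were Kif17, a second transport motor (0.143 TPM), and Ttc30a2 (0.822 TPM), which has near-identical copies that can split its reads. All 23 transition zone genes were expressed, from B9d2 at 56.2 TPM to Tctn1 at 3.02 TPM.

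Hedgehog signalling runs through this cilium, and 25 of 27 genes of its membrane and of the pathway were expressed (median 18.4 TPM). The co-receptor Gas1 (120 TPM), the lipid phosphatase Inpp5e (72.3 TPM) and the transducer Smo (50.2 TPM) led. Arl13b, a small GTPase of the cilium membrane, was at 18.2, 21.5 and 23.1 CPM. Gli3, the main repressor of the pathway in the dorsal forebrain, was at 83.6, 91.0 and 67.3 CPM (29.8 TPM). The target genes were lower per length, Ptch1 at 4.90 and Gli1 at 3.58 TPM. Shh, the ligand, had 0, 0 and 1 count.

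Promoter sequence was compared with level as a feature that played no part in choosing the libraries. RefSeq windows (GRCm38.p6, 250 bases before to 50 after the start) were matched to 16504 of the 21865 coding genes and to 658 of the 843 listed genes. CpG-rich windows (observed over expected CpG of at least 0.6) made up 76.4% of expressed genes (95% exact binomial interval 75.5 to 77.2), 27.5% of low genes (25.97 to 29.1) and 5.001% of genes not counted (4.34 to 5.73). These intervals treat genes as independent draws, which they are not, and do not measure the spread between libraries. The letters GTTGCC on either strand, the core of the site bound by RFX factors, were in 12.3% of all windows, and in 12.7%, 13.1% and 10.8% of windows of expressed, low and uncounted genes. They were in 46.4% of 28 intraflagellar transport windows, 36.8% of 19 transition zone windows and 44.4% of 72 axonemal windows, but in 9.09% of 22 windows of cilium membrane and Hedgehog genes. Among the axonemal genes the share was 42.3% of 26 expressed and 45.7% of 46 others. The share in axonemal genes below the line was thus no lower than in those above it.

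The sequences shown are 3 windows of expressed transport genes (Ift57 at 27.5, 33.7 and 29.1 CPM, Ttc26 at 25.5, 33.2 and 22.4 CPM, and Kif3a) and 3 of genes below the line (Deup1, Mcidas and the central pair gene Hydin at 0.116, 0.947 and 0.201 CPM), to show that both kinds hold the same letters. Capitals mark GTTGCC or its complement GGCAAC. The windows are chr16:49699044-49699343 (Ift57, plus strand), chr6:38381274-38381573 (Ttc26, plus strand), chr11:53567119-53567418 (Kif3a, plus strand), chr9:15627797-15628096 (Deup1, minus strand), chr13:112993618-112993917 (Mcidas, plus strand) and chr8:110266727-110267026 (Hydin, plus strand).
Ift57: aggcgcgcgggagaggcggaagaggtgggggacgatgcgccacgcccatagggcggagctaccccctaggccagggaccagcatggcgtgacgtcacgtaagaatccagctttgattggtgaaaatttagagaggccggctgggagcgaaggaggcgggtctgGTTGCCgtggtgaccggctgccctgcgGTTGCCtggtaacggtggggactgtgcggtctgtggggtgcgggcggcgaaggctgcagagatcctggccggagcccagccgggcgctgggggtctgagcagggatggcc
Ttc26: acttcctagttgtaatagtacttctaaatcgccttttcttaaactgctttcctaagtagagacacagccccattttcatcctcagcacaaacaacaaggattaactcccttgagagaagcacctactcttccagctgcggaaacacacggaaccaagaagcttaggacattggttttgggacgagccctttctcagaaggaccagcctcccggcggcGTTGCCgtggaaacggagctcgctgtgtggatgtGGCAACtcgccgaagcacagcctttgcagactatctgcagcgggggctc
Kif3a: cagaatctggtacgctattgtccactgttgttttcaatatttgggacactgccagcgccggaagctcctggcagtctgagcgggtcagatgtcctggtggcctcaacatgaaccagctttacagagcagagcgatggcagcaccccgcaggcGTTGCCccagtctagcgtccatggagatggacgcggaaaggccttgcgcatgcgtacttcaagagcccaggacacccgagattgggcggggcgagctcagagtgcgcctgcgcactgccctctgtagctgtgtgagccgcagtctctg
Deup1: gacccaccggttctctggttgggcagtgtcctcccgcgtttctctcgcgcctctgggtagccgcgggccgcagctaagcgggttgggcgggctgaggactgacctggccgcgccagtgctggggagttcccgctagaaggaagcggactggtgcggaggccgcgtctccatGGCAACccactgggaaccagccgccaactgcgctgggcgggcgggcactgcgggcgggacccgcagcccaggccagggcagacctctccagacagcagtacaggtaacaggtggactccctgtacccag
Mcidas: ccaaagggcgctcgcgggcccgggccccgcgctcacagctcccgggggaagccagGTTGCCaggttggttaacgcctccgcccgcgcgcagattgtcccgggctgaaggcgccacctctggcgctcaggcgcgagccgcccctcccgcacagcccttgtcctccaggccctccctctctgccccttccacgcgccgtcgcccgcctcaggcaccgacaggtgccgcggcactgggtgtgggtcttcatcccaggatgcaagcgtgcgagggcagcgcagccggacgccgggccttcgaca
Hydin: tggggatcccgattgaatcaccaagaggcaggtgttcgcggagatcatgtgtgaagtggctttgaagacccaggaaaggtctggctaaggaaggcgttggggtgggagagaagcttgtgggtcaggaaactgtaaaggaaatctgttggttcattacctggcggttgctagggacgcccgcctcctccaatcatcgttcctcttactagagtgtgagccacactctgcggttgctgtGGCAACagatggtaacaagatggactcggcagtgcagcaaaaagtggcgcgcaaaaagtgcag
A match describes letters in a window and is not evidence of binding.

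**Figure D3:**
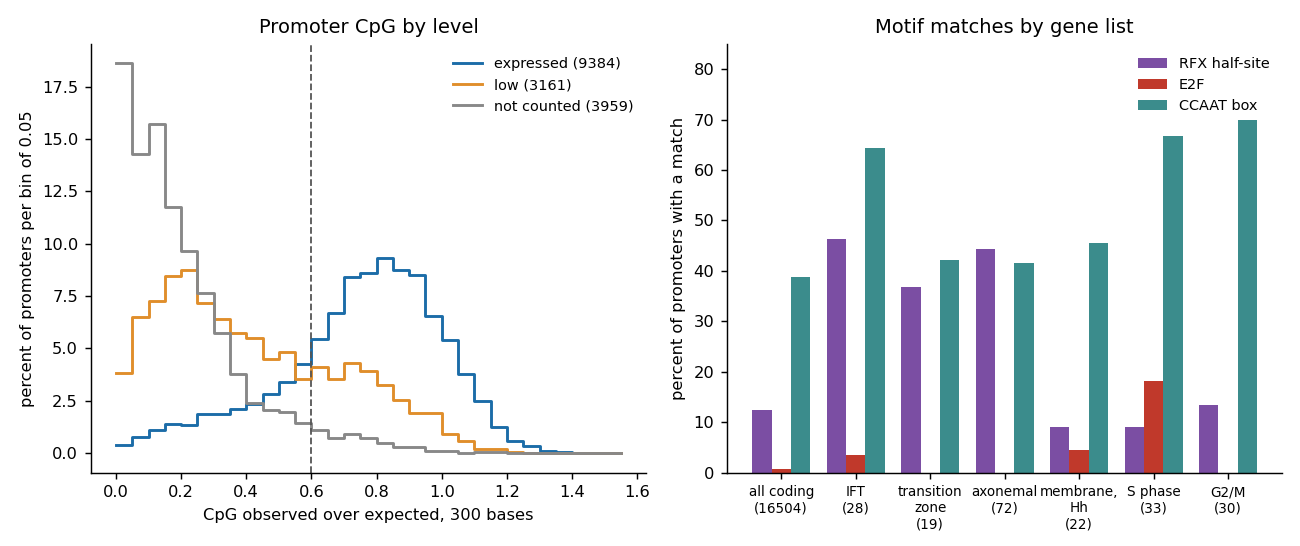
Left, distribution of observed over expected CpG (x axis) in 300-base promoter windows of expressed, low and uncounted coding genes (y axis, percent of windows per bin). The dashed line marks 0.6, which 76.4%, 27.5% and 5.001% of the windows reach. Right, percent of windows (y axis) with the RFX core GTTGCC, the E2F site TTTGGCGC or the CCAAT box, for all coding genes and for 6 lists (x axis, number of windows in parentheses). Intraflagellar transport and axonemal genes have tall RFX bars at 46.4% and 44.4%.

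Cell-cycle genes were uniformly expressed. All 41 genes of DNA replication and S phase (median 52.4 TPM), all 38 of G2/M and mitosis (median 45.1 TPM) and all 23 G1 genes (median 33.1 TPM) passed the line. Rrm2, the subunit of ribonucleotide reductase made in S phase, led the first list at 238 TPM, and Mcm7 (200.4 TPM) and Mcm6 (159.6 TPM) of the replicative helicase followed. Cdc20 (163 TPM), Ccna2 (136 TPM) and Ccnb2 (110 TPM) led the second. Mki67, the Ki-67 proliferation antigen, was at 123, 144 and 110 CPM, and Top2a, a topoisomerase of mitosis, at 260, 251 and 209 CPM. Mcm2 was at 200, 178 and 151 CPM, the licensing factor Cdt1 at 29.3, 27.6 and 17.6 CPM, and the sliding clamp Pcna at 64.4, 60.0 and 56.2 CPM. In each of these 5 genes replicate 3 was the lowest.

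The D cyclins, which drive exit from G1, kept a clear order per length. Ccnd2 was at 154 ± 18.0 TPM, Ccnd1 at 46.7 ± 4.595 TPM and Ccnd3 at 13.3 ± 1.17 TPM, with no overlap between neighbours. Their kinase Cdk4 was the highest gene of the list at 875 TPM, although 19.7% of its exons overlap Tspan31. About 23.4% of the Ccnd1 exons overlap LTO1.

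Among inhibitors of cyclin-dependent kinases, p21 was near the bottom. Cdkn1a was at 4.18, 3.09 and 2.47 CPM (3.23 ± 0.84 TPM). Cdkn2d (p19) was the highest at 45.0, 38.1 and 42.9 CPM (94.4 ± 6.56 TPM), followed by Cdkn1c (p57) at 63.0 ± 1.46, Cdkn2c (p18) at 34.4 ± 3.73 and Cdkn1b (p27) at 24.6 ± 3.84 TPM. Cdkn3 was at 6.40 TPM, Cdkn2b at 0.571 TPM, and Cdkn2a, which codes for p16 and Arf, was not counted. No 2 neighbours in this order overlapped in their TPM values over the 3 libraries. About 30.7% of the Cdkn1c exons overlap another annotated gene.

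In the promoter windows, the E2F letters TTTGGCGC were in 18.2% of 33 windows of S-phase genes against 0.691% of all windows, and in 0 of 30 windows of G2/M genes. The CCAAT box was in 66.7% and 70.0% of these windows, respectively, against 38.7% of all. Its share varied among other lists, with 64.3% of 28 intraflagellar transport, 63.2% of 19 radial glia and 25.0% of 20 apoptosis windows. A high share was thus not particular to cell-cycle genes. E2F and CCAAT matches overlapped in no window, and GTTGCC and CCAAT matches overlapped in 64. The window of Mcm6 (chr1:128359656-128359955, minus strand) holds both motifs, and the window of Ccnb1 (chr13:100786437-100786736, minus strand), the mitotic cyclin at 76.4, 80.3 and 66.6 CPM, holds CCAAT boxes alone. Both are shown with the matches on either strand in capitals (the complement of the CCAAT box reads ATTGG).
Mcm6: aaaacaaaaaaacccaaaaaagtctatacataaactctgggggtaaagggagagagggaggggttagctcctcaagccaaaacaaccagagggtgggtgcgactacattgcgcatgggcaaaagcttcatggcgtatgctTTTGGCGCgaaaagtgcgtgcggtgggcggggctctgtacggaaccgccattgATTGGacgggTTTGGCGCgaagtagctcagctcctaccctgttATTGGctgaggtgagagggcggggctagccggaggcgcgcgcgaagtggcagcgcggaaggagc
Ccnb1: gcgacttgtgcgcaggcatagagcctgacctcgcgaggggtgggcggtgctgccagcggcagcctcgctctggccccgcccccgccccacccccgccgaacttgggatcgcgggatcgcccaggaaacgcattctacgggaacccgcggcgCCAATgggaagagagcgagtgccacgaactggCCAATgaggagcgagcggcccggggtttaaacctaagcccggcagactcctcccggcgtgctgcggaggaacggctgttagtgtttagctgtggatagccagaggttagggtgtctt

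The p53 gene itself was well expressed. Most of its listed targets passed the line of 1 CPM, but their median level was below that of expressed coding genes. Of the 40 targets 35 were expressed, 4 were low and 1 was not counted. Trp53 (chr11:69580359-69591873) was at 117, 105 and 98.9 CPM (93.5 ± 7.38 TPM), in the upper part of expressed coding genes (percentile 82.3). Mdm2, the ubiquitin ligase that degrades p53 and is also its target, was at 147, 141 and 157 CPM (103 ± 4.73 TPM). Mdm4 was at 145, 151 and 149 CPM, level across the libraries (149 ± 2.82). Trp63 was not counted and Trp73, given above, was low, so Trp53 was the single member of its family above the line. Of 20 family members and regulators 18 were expressed, with Trp53bp1 (117 TPM) the highest.

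Of 40 p53 target genes 35 were expressed, with a median of 16.51 TPM. Rps27l (283 TPM), Trp53i11 (282 TPM) and the apoptosis effector Bax (202 TPM) were the highest. Bax was at 98.8, 85.3 and 85.5 CPM. Ccng1 was at 33.7, 33.5 and 38.4 CPM and Pidd1, which links extra centrosomes to p53, at 20.6, 18.7 and 23.9 CPM, both highest in replicate 3. The low end held Pmaip1 (0.291, 0.121 and 0.0863 CPM), Tnfrsf10b, Gdf15 and Fas, all at under 0.3 TPM, and Sfn, which was not counted. By its mean, Cdkn1a ranked among the lowest of the expressed targets, with only Ptp4a3 (2.99 TPM) and Eda2r (1.76 TPM) under it.

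Genes of DNA damage signalling and repair were all expressed, 42 of 42, with a median of 22.7 TPM. H2afx, the histone variant phosphorylated at breaks, was the highest at 165, 132 and 146 CPM (377 ± 36.8 TPM), followed by Ddb1 (296 TPM) and Parp1 (220.4 TPM). Bard1 (2.39 TPM) and Palb2 (5.20 TPM), partners of BRCA1 and BRCA2, were the lowest. Of 24 apoptosis genes 20 were expressed (median 25.0 TPM). Mcl1, a survival factor, was at 231 TPM. Hrk and Pmaip1, which trigger apoptosis once induced, were the lowest at 0.647 and 0.215 TPM.

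**Figure D4:**
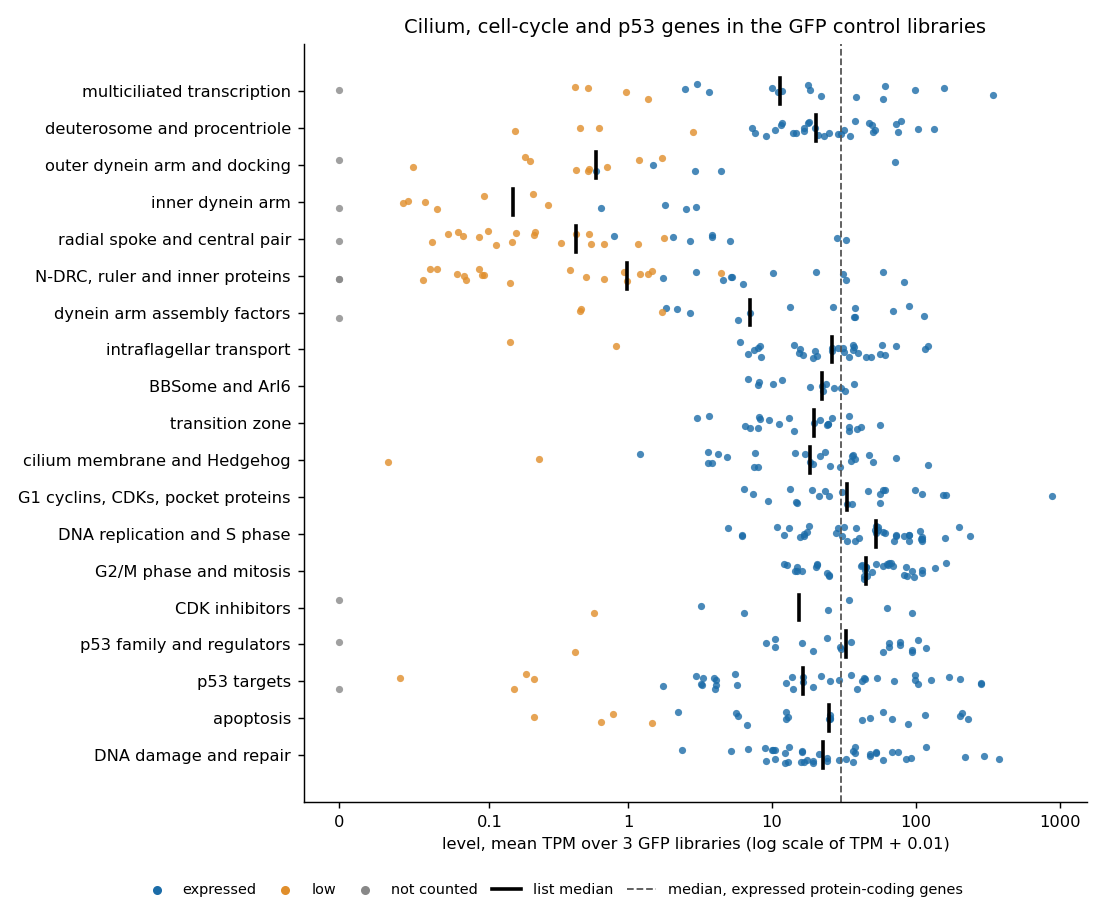
Mean level of each gene over the 3 GFP libraries (x axis, TPM, on a log scale of TPM + 0.01) for 19 lists of cilium, centriole, cell-cycle, p53 and DNA damage genes (y axis). Points are genes coloured by class, black bars are list medians and the dashed line is 30.4 TPM. The 4 axonemal lists have medians from 0.150 to 0.989 TPM, and the intraflagellar transport, BBSome and transition zone lists from 19.5 to 26.3 TPM.

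Signalling and stress genes complete the baseline. Of 31 Notch genes 28 were expressed (median 23.9 TPM). The receptors kept the order Notch1 (27.0 ± 4.68 TPM), Notch2 (16.8), Notch3 (4.54) and Notch4 (1.79) without overlap. Notch1 was at 111, 124 and 89.5 CPM, the ligand Dll1 at 86.9, 78.1 and 61.1 CPM and the target Hes1 at 12.6, 15.4 and 13.1 CPM. About 20.5% of the Dll1 exons overlap another annotated gene. Immediate early genes, which dissociation and sorting can induce, were present in all libraries: Fos was at 164, 129 and 83.4 CPM and Egr1 at 412, 427 and 284 CPM, both lowest in replicate 3. Of 24 such genes 20 were expressed, and Jund (559 TPM), of whose exons 52.6% overlap another gene, led the list. Planar polarity genes, later used to orient motile cilia, were expressed in 16 of 18 cases (median 66.6 TPM), with Vangl2 at 150 TPM and its relative Vangl1 at 0.736 TPM.

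Across all genes, the highest levels per length were of short loci and the cytoskeleton. The 10 highest were Gm23935, Gm37376, Gm22133, Gm23419, Mir6236, Actb, Tuba1a, Tmsb4x, Gm23134 and Gm15564. Of these, 5 are annotated as microRNA loci of 57 to 123 bases, and reads of a long-RNA library at such loci are divided by a very short length, so their TPM values say little. Actb, the cytoplasmic actin, was at 7837 ± 445 TPM and Tuba1a, the alpha-tubulin of young neurons, at 6929 ± 395 TPM. The near-identical tubulin genes Tuba1a, Tuba1b and Tuba1c can exchange reads. Among beta-tubulins Tubb3 (1929 TPM) and Tubb5 (1720 TPM) were far above Tubb2b (482 TPM), and Tubb4b, which motile cilia use, was at 178 ± 20.4 TPM.

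The 3 libraries were close for most genes. The median coefficient of variation of expressed genes was 8.79%. The median of the value that counting alone gives was 3.03%. Among 10378 genes with a mean of at least 10 CPM, 64 (0.617%) differed by 2 times or more between the highest and the lowest library. The most variable was Slc7a11, the cystine transporter of the oxidative and amino acid stress responses, at 1.801, 8.75 and 52.2 CPM. Tuba1c was at 15.0, 20.8 and 83.0 CPM, also highest in replicate 3, and Rbm45 at 54.8, 22.9 and 10.96 CPM in the opposite order. The others of the 10 were Hist1h4d, Uty, Usp18, Nr2f2, Eif2s3y, Ddx3y and Kctd4. Nr2f2, a factor of caudal and ventral forebrain, was at 17.5, 22.8 and 5.27 CPM.

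Genes of the sex chromosomes were among these. Xist, transcribed from the inactive X chromosome of female cells, was nearly level at 291, 282 and 286 CPM. The Y-linked Ddx3y was at 11.2, 32.2 and 36.9 CPM and Eif2s3y at 14.498, 44.8 and 49.7 CPM, lowest in replicate 1. Uty (6.68, 22.3 and 32.1 CPM) followed the same order. Each library therefore held transcripts of both sexes, with a lower Y-linked level in replicate 1.

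Levels of progenitor and cell-cycle genes were lower in replicate 3 than in the other libraries. It was the lowest of the 3 in 37 of 38 expressed G2/M genes, 34 of 41 S-phase genes, 18 of 22 radial glia genes and 32 of 42 DNA damage genes, against 40.4% of all expressed genes. The median log2 difference of replicate 3 from the mean of the 3 libraries was -0.20 over G2/M genes, -0.22 over S-phase genes and -0.25 over radial glia genes, against -0.02 over all expressed genes. Genes of the astrocyte and oligodendrocyte lists, many of which radial glia share, were lower still at -0.35 and -0.37. Excitatory neuron genes were the highest in replicate 3 for 13 of 20 and pan-neuronal genes for 13 of 21, against 29.4% of all expressed genes, with median differences of 0.09 and 0.05. Not every neuronal list followed them. Upper-layer genes had a median difference of 0.03, deep-layer and subplate genes were at -0.05 with 6 of 12 lowest in replicate 3, and genes of the ventral and inhibitory lineage were at -0.19 with 12 of 15 lowest there. These lists were read after the order of the libraries had been seen for several genes, and no test was made.

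Cilium and p53 lists differed among themselves in how they moved with the library. The median difference of replicate 3 was -0.05 over 31 intraflagellar transport genes, -0.01 over 13 BBSome genes and -0.05 over 23 transition zone genes. It was -0.08 over 25 genes of the cilium membrane and Hedgehog signalling, -0.12 over 13 dynein assembly factors and -0.10 over 30 deuterosome and procentriole genes, of which 22 were lowest in replicate 3. The deuterosome and procentriole list thus stood where the DNA damage list did, at -0.09. Over 18 p53 regulators it was 0.01 and over 35 p53 targets -0.07, with 19 of the targets lowest in replicate 3. The counts of 22 and 19 stand beside 40.4% of all expressed genes that were lowest in replicate 3. Total counts were 34417359, 41163917 and 34756650, highest in replicate 2. The mitochondrial share (0.334%, 0.344% and 0.395%) and the share of the top 100 genes (12.0%, 12.0% and 12.6%) were highest in replicate 3. The part of depth and of these shares in the order of the lists was not tested.

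**Figure D5:**
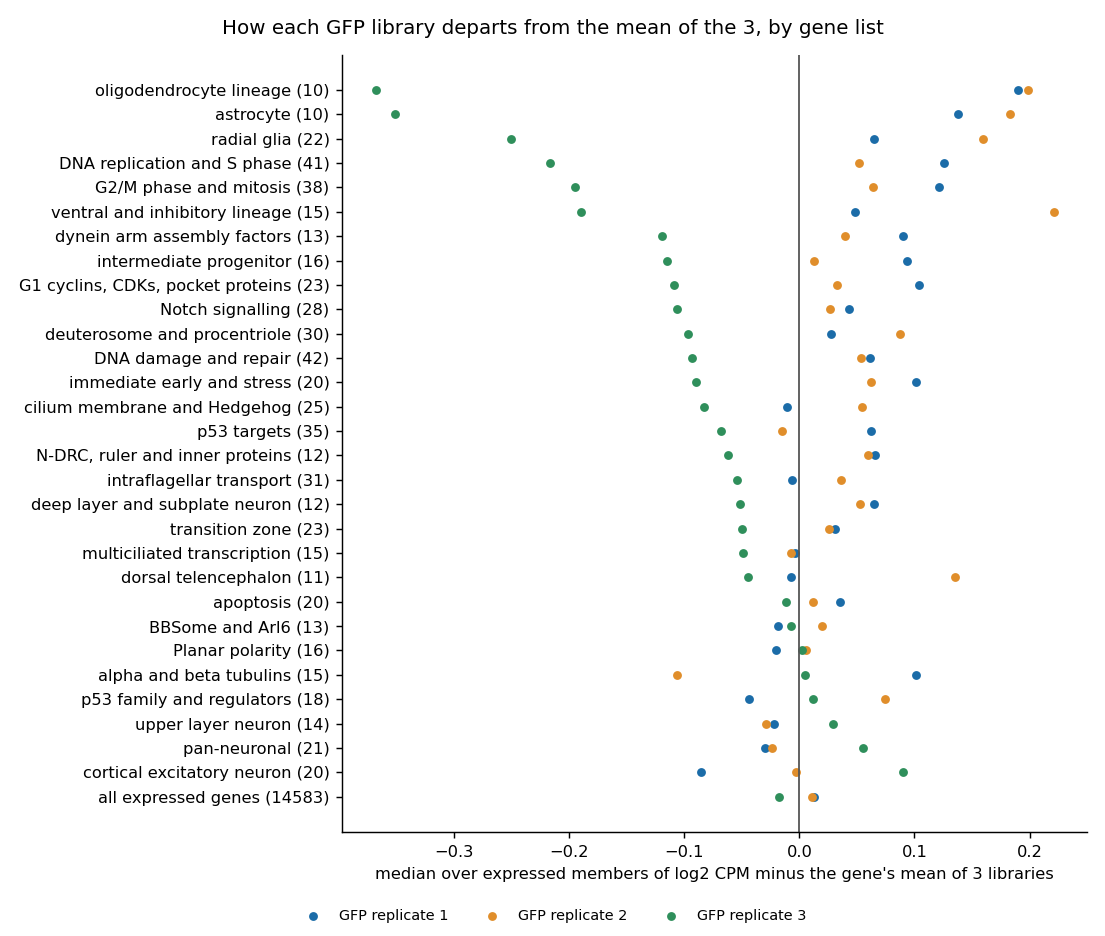
Median over the expressed members of each list (y axis, number of genes in parentheses) of log2 CPM in a library minus the gene's mean over the 3 GFP libraries (x axis). Points are libraries. Replicate 3 lies to the left for radial glia (-0.25), S-phase (-0.22) and G2/M genes (-0.20) and to the right for cortical excitatory neuron genes (0.09), and all 3 libraries lie near 0 for BBSome genes.

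Interferon-response genes differed more between the libraries than the lists above. Of 25 genes 7 were expressed, and 13 were without replicate 3. The median level over the 25 was 2.70, 1.57 and 0.463 TPM in replicates 1, 2 and 3. Over the means of the 3 libraries it was 1.505 TPM, and 0.909 TPM without replicate 1. The median difference from the mean was 0.51 in replicate 1, 0.03 in replicate 2 and -0.59 in replicate 3 over the 7 expressed genes. Usp18, which removes the ubiquitin-like ISG15, was at 25.2, 10.7 and 5.38 CPM. Ifit1, an interferon-induced protein that binds viral RNA, was at 6.48, 1.04 and 0.0288 CPM, the last of which is 1 count. Irf3 (31.1, 28.1 and 29.2 CPM) and Stat2 (37.4, 40.2 and 40.7 CPM) were level.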

How the data were processed

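RNA of the 3 GFP samples was amplified from 10 ng with the SMART-Seq v4 kit, made into Nextera XT libraries and read for 75 bp, per the labels' protocols. The authors deposited 1 table of whole-number read counts over Ensembl gene IDs for each library, per the file headers. Tools listed in the submitters' processing notes, without roles, are HTSeq 0.5.3, STAR 2.5.2b and DESeq2 1.8.1, with the build mm10. The annotation release and the strand setting were not given in the sources used here.

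Of 53379 gene IDs, 53274 were matched to GENCODE M21 (GRCm38), whose merged exons gave lengths. CPM used total counts and TPM the lengths. Scaling alternatives came from edgeR 4.0.16 and DESeq2 1.42.0 in R 4.3.3. The code was checked on simulated data. Because 1 group is described, no test was made, and counts without molecular identifiers give floors (3 counts) for counting error only. No library was a copy of another: chi-square over degrees of freedom was 13.0 to 18.0 for the 3 pairs.

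Members and the 42 lists (843 distinct genes, 42 in more than 1 list, 2 names unmatched) were chosen with earlier results of these data known. Named genes are the 5 markers, a core set, the 3 highest and 2 lowest per list by TPM, the 10 highest by TPM overall and the 10 most variable at a mean of at least 10 CPM. Some genes that this rule names are not reported here. Other genes named, the promoter motifs and the windows shown were chosen after their values were seen. Promoters came from RefSeq; of genes with more than 1 window (2678) the first was used.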

Additional observations from a re-analysis of the deposited data

How the results depend on the processing

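No paired analysis was possible because the libraries form 1 group and no test was made. TMM, DESeq2 size factors and totals without mitochondrial and globin genes left 14583 genes expressed, since the line of 1 CPM needs 35, 42 and 35 counts in the 3 libraries under each. The number was 16076 at 0.5 CPM, 13234 at 2 CPM, 16576 at 1 TPM and 14731 to 14893 without 1 replicate. Of 387 list counts under these alternatives 373 stayed within 1.5 times. The others were of short or low lists. At 2 CPM the counts were 1 for other brain regions, 1 for choroid plexus and cortical hem, 2 for Cajal-Retzius, 0 for endothelium, 1 for pericytes, 2 for erythroid and 3 for outer dynein arm genes. At 0.5 CPM they were 5 for microglia, 2 for meninges and 8 for outer dynein arm genes. At 1 TPM they were 2 for Cajal-Retzius and 6 for microglia genes. Without GFP replicate 3, 5 microglia and 13 interferon genes were expressed (3 and 7 with it); leaving out replicates in turn gave 3 to 5 and 7 to 13.

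The median coefficient of variation was 8.81% with TMM, 8.82% with DESeq2 size factors, 7.21% at a mean of at least 10 CPM, and 6.88% to 8.12% without 1 replicate. CpG-rich shares of expressed and low genes were 74.9% and 25.1% at 0.5 CPM, and 77.9% and 29.9% at 2 CPM. Of 215 list medians under the alternatives 32 moved by more than the spread between libraries. Those of at least 1 TPM were 0.779 to 1.501 times the reported value with the longest transcript as length, 0.604 to 1.12 times without replicate 1, 0.878 to 1.03 times without replicate 2 and 0.899 to 1.48 times without replicate 3. The lowest ratio was that of interferon genes and the highest that of astrocyte genes (6.29 TPM). Replicate 3 stayed below the mean for G2/M genes at -0.17 (TMM) and -0.18 (DESeq2). Depth limits calls under about 0.09 CPM.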
